A study of Mus musculus with 10 samples.

Results

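The genes described here encode the collagens, laminins and nidogens, structural proteins of basement membranes and of fibrous extracellular matrix. They were found on the array by symbol, namely Col with 2 numbers around an a, Lama, Lamb or Lamc with a digit, Nid1 and Nid2. Of 18820 genes with a probe set of their own, 53 were members. They were read as 19 basement membrane genes, 11 fibrillar collagens and 23 other collagens. Where a gene had several probe sets, the one with the highest mean level was read. Nid2, Col7a1 and Col9a3 met the symbol rule but share their probe sets with another gene, so they were left out.

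RNA came from the hypothalamus of male CDF1 mice, a cross of BALB/c and DBA/2, aged 10 to 11 weeks. Tumour-bearing mice had received 1000000 C-26 adenocarcinoma cells subcutaneously, suspended in 0.2 ml of a salt solution, 20 days before they were killed, and controls 0.2 ml of the solution alone. C-26 is a transplanted mouse tumour line known for causing wasting, and a single line at a single cell number was used. There were 3 control and 5 tumour-bearing mice on arrays of their own, and a further 2 arrays held pools, of 4 control animals and of 5 tumour-bearing animals. Whether mice arrayed singly are also in the pools is not stated, so the pools are set beside the single mice and enter no test. The comparison of the 5 with the 3 single mice asks how expression in the hypothalamus differs between tumour-bearing and control animals.

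Basement membranes are thin sheets of matrix that underlie epithelia and endothelia. They are built on a network of laminin trimers, each of an alpha, a beta and a gamma chain, and on a further network of type IV collagen, with nidogens linking them. In the brain they surround the vessels, where endothelial cells, pericytes and astrocytes contribute chains, while fibrillar collagens, the fibres of connective tissue, are made mainly by fibroblasts of the meninges and vessel walls.

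The sequences shown are the 250 bases before the annotated start of Col3a1, Col1a2 and Nid1, from RefSeq on build GRCm38.p6. Col3a1 and Col1a2 had the lowest differences of the fibrillar collagens, and Nid1 had a low difference among the basement membrane genes. All read 5′ to 3′ on the plus strand, at chr1:45311288-45311537, chr6:4505368-4505617 and chr13:13437352-13437601. Capitals mark CCAAT (the CCAAT box), TATAAA (the TATA box) and GGGCGG (the GC box), searched on both strands, so that ATTGG also marks a CCAAT box.
Col3a1: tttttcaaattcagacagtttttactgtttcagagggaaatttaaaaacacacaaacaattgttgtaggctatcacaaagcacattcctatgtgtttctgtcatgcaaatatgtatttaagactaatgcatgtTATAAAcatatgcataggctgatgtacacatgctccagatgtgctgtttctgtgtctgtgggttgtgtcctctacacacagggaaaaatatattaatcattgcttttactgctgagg
Col1a2: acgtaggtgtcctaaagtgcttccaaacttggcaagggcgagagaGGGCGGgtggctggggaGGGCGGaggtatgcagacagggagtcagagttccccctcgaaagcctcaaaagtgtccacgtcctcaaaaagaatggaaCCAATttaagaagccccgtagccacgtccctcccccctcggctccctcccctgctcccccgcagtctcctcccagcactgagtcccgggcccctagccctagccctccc
Nid1: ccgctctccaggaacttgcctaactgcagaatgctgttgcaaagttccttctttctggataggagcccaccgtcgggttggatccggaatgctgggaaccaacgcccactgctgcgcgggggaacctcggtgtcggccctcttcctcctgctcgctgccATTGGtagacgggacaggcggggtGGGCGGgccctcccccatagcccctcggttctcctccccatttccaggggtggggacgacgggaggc
Col3a1 held 1 TATAAA and no match to the others, Col1a2 held 1 CCAAT and 2 GGGCGG, and Nid1 held 1 CCAAT, read on the other strand, and 1 GGGCGG. Over 44 windows of 40 members, counted with a chromosome left out, 31.8% held the CCAAT box, 11.4% the TATA box and 54.5% the GC box. Over all 32851 windows of the same length, counted without that exclusion, the shares were 33.8%, 12.4% and 32.7%. A match is a run of letters and not a measured binding site.

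Values are log2 expression levels, and differences are tumour-bearing minus control on that scale. A gene was tested where it lay above 20 on the linear scale (4.32 in log2) on at least 3 of the 8 single arrays. The array medians lay between 5.27 and 5.32. All 11 markers of hypothalamic neurons, Pomc, Hcrt, Avp and Oxt among them, passed that filter. Of the 11, 10 were above 0 and 0 were called, with a median difference of 0.23. Their mean centred level was -0.24 to -0.12 in the controls and -0.12 to 0.25 in the tumour-bearing mice. Markers of the anterior pituitary, 3 of them tested, were high in tumour-bearing mice 3 and 4. Their mean centred levels there were 1.91 and 1.86, against -1.16 to -0.31 in the other 6 mice. The tumour-bearing pool was at 1.57 and the control pool at -0.38. All 7 tested markers of midbrain neurons were below 0, with a median of -0.93. Their part in the results was not tested beyond the values without mice 3 and 4. In bulk tissue, fewer cells of a type and less RNA per cell cannot be told apart.

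No collagen or laminin gene passed the threshold. Of the 53 members 40 passed the filter, and 0 of the 40 were called higher and 0 lower (limma, adjusted p under 0.05 over all 22837 probe sets tested), where 0.0771% of all 12978 tested genes (10 higher, 0 lower) and 0.0569% of all tested probe sets were called. At an unadjusted p under 0.05 there was 1 member of 40, Col3a1, where 10.3% of all tested genes reached that level, 6.51% lower and 3.78% higher. The smallest adjusted p among the members was 0.369 (limma), that of Col3a1. The differences ran from -0.31 to 0.38, and 25 of the 40 were below 0, beside 54.5% of all tested genes. The median was -0.042 over the members, -0.076 over the 15 tested basement membrane genes, -0.060 over the 9 tested fibrillar collagens and 0.014 over the 16 tested other collagens, against -0.010 over all tested genes. On leaving out 1 mouse at a time the median ran over -0.13 to -0.020 for the basement membrane genes (smallest in size without control 3, largest without control 1), -0.098 to 0.013 for the fibrillar collagens and -0.017 to 0.062 for the other collagens, so that the last 2 did not keep their sign.

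Precision varied between the 40 genes, all measured on the same 8 single arrays. Standard errors (SE) of the 40 differences ran from 0.064 to 0.21, with a median of 0.12, and the 95% interval had a median half-width of 0.27. The interval excluded 0 for 1 gene, Col3a1. For 9 of the 40 it reached past 0.5 in at least 1 direction, so a difference of that size was not excluded for those genes. The lowest bound was -0.61 (Lama4) and the highest 0.85 (Col6a5).

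**Figure D1:**
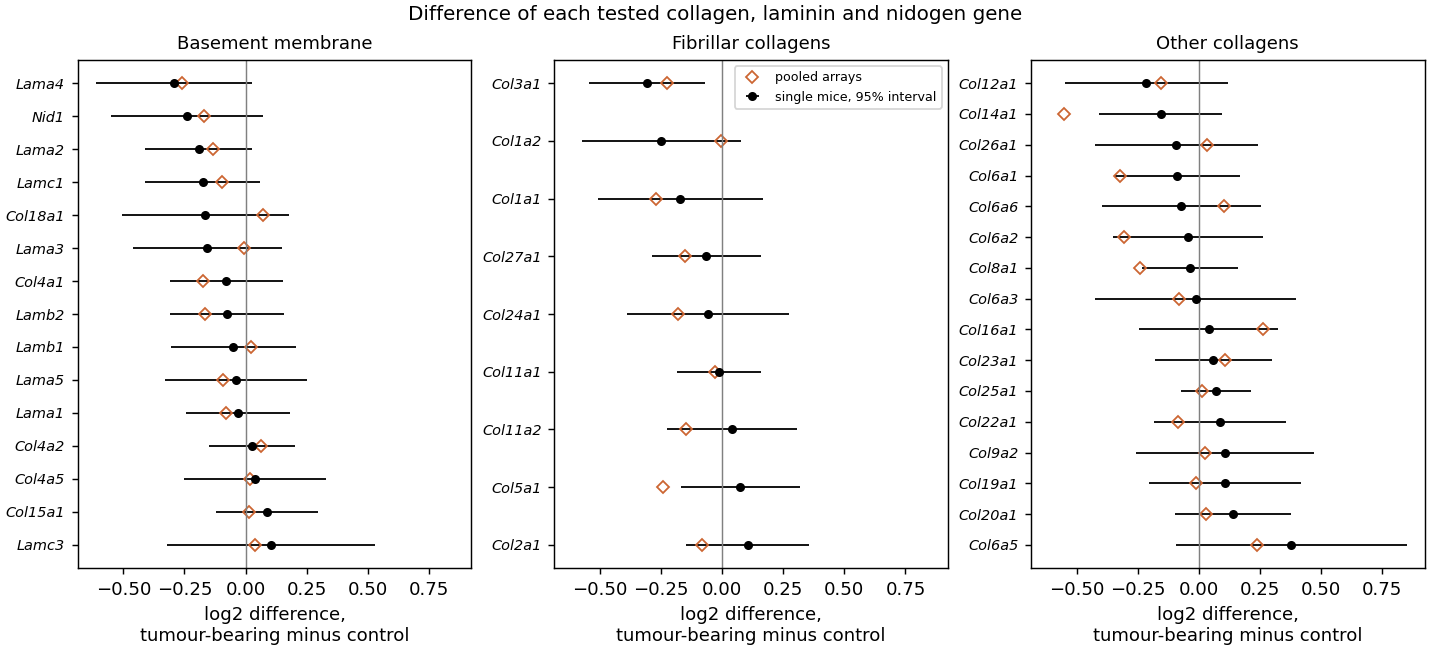
Log2 difference, tumour-bearing minus control, for the 40 tested members in 3 groups. Points and bars are the 5 against the 3 single mice with the 95% interval of the fit, and open diamonds the difference between the 2 pooled arrays; the interval of Col3a1 alone lies wholly to one side of 0.

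Of the 9 tested laminin chains 8 were below 0 and 0 were called, with a median difference of -0.076. The count below 0 was 6 of 9 without control 3. Lama4, an alpha chain of endothelial basement membranes, had the lowest difference. It was at 6.02, 5.79 and 6.11 in controls 1 to 3, and at 5.67, 5.78, 5.88, 5.79 and 5.27 in tumour-bearing mice 1 to 5. Mouse 5 lay well below the other 7, and the remaining tumour-bearing mice lay within or just below the control range. The means were 5.97 ± 0.16 (SD, n = 3) and 5.68 ± 0.24 (SD, n = 5), a level 1.23-fold lower (difference -0.29 ± 0.14 SE, limma adjusted p = 0.518). Leaving out 1 mouse gave -0.38 to -0.19, with -0.19 without mouse 5.

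Lama2 encodes an alpha chain that astrocytes and mural cells lay down around vessels. Its level was 6.86, 6.62 and 6.69 in the controls and 6.72, 6.61, 6.42, 6.56 and 6.35 in the tumour-bearing mice. The groups overlapped, with mouse 1 above controls 2 and 3 and the other 4 tumour-bearing mice below every control. The difference was -0.19 ± 0.097 SE (limma adjusted p = 0.526). Lama3, best known from the laminin of skin, differed by -0.16 ± 0.14 SE, and by -0.064 without mouse 5, whose level of 5.04 was the lowest of the 8 (range on leaving out 1 mouse -0.22 to -0.064). Lama5, another alpha chain of vessels, differed by -0.040 ± 0.13 SE, but by 0.050 without control 2 and 0.0025 without tumour-bearing mouse 4. Lama1, an alpha chain of the pial surface, differed by -0.031 ± 0.095 SE, and by 0.047 without control 3.

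Lamc1 encodes the gamma chain found in most laminin trimers. It was at 7.03, 6.88 and 7.10 in the controls and at 6.85, 6.95, 6.82, 6.97 and 6.52 in the tumour-bearing mice. Mouse 5 was again the lowest, and mice 2 and 4 lay among the controls. The difference was -0.18 ± 0.10 SE (limma adjusted p = 0.602), or -0.10 without mouse 5 (range on leaving out 1 mouse -0.24 to -0.10). Lamc3, a less widespread gamma chain, was at 4.71, 5.44 and 5.48 in the controls and 5.06 to 5.58 in tumour-bearing mice. Control 1 stood below all others, and the difference of 0.11 ± 0.19 SE became -0.14 without it.

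Both tested beta chains had differences smaller in size than their standard errors. Lamb1, a beta chain of many tissues and of vessels, differed by -0.049 ± 0.11 SE, and by 0.0063 without control 1 and 0.021 without control 3. Lamb2, a beta chain of vessels and synapses, differed by -0.076 ± 0.10 SE. In Lamb2 tumour-bearing mouse 5 was at 6.75 and the other 4 between 7.06 and 7.10, and without mouse 5 the difference was -0.010. Without control 1, the lowest control at 6.88, it was -0.18. Lamb3 did not pass the filter.

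Nid1, a linker of the laminin and collagen networks, had the second lowest difference of the basement membrane genes. It was at 6.60, 6.68 and 7.04 in the controls and at 6.36, 6.75, 6.68, 6.65 and 6.26 in the tumour-bearing mice. The groups overlapped, control 3 was the highest of the 8, and tumour-bearing mice 5 and 1 were the lowest. The means were 6.78 ± 0.23 (SD, n = 3) and 6.54 ± 0.21 (SD, n = 5), a difference of -0.24 ± 0.14 SE (limma adjusted p = 0.594). Without control 3 the difference was -0.11 and without mouse 5 it was -0.17, within a range of -0.33 to -0.11 on leaving out any 1 mouse.

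Type IV collagen forms the other network, and Col4a1 and Col4a2 encode the chains of its widespread form. Col4a1 was at 5.34, 5.57 and 5.44 in the controls and at 5.55, 5.24, 5.28, 5.42 and 5.39 in the tumour-bearing mice. Col4a2 was at 6.12, 6.11 and 6.22 in the controls and at 6.26, 6.15, 6.19, 6.27 and 6.02 in the tumour-bearing mice. In each gene the groups overlapped over most of their range. Col4a1 differed by -0.078 ± 0.10 SE (95% interval -0.31 to 0.15) and Col4a2 by 0.026 ± 0.078 SE (95% interval -0.15 to 0.20). Col4a5, a chain of a more specialised network, differed by 0.038 ± 0.13 SE, and by -0.045 without control 1 and -0.00060 without tumour-bearing mouse 5. Col4a3, Col4a4 and Col4a6 did not pass the filter.

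Col15a1 and Col18a1 encode collagens that carry sugar chains and lie at the edge of basement membranes; cleavage of the Col18a1 product releases endostatin, a fragment that limits vessel growth. Col15a1 was 5.04 to 5.09 in the controls and 5.07 to 5.24 in the tumour-bearing mice, and differed by 0.089 ± 0.093 SE. Col18a1 was at 4.70, 4.66 and 5.05 in the controls and at 4.76, 4.84, 4.48, 4.38 and 4.74 in the tumour-bearing mice. Mice 3 and 4 were the lowest of the 8, and mice 1, 2 and 5 lay within the control range. Col18a1 differed by -0.17 ± 0.15 SE, by -0.025 without mice 3 and 4, and by -0.040 without control 3, the highest of the 8 (range on leaving out 1 mouse -0.24 to -0.040).

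**Figure D2:**
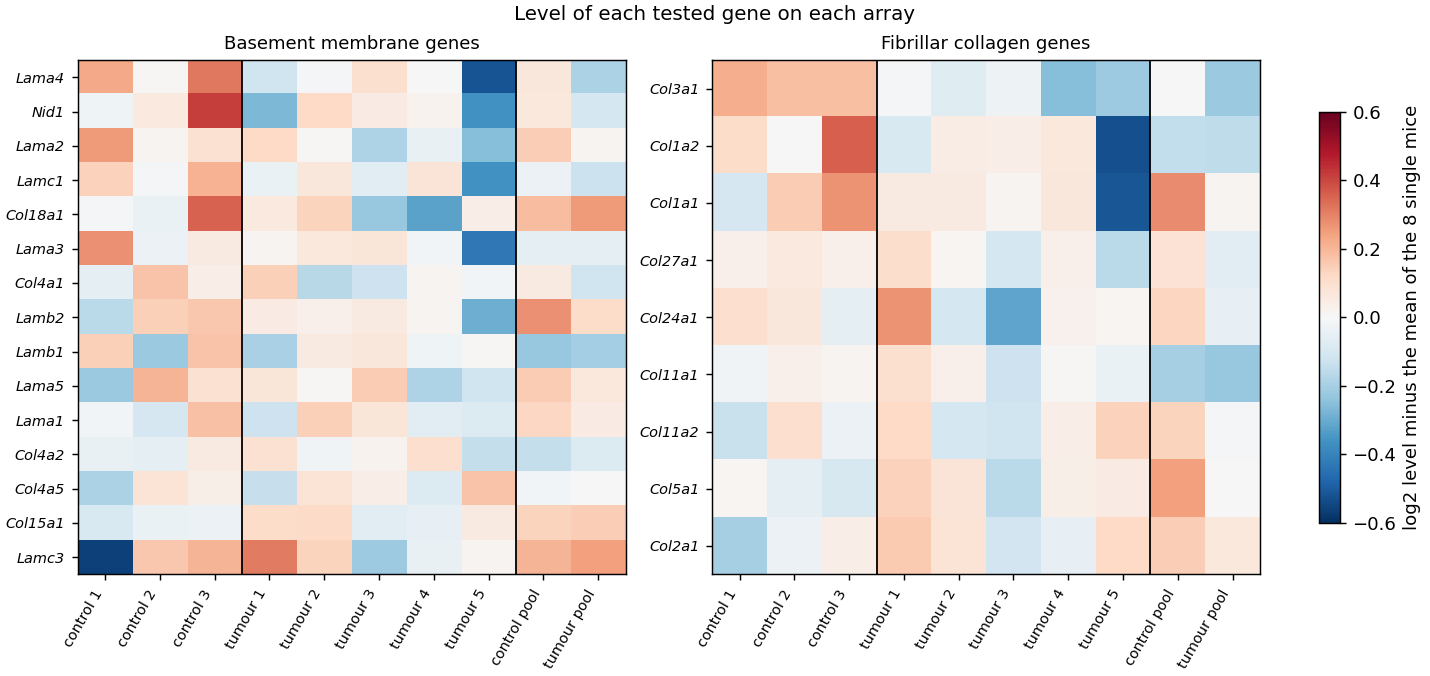
Log2 level of each tested basement membrane gene (left) and fibrillar collagen (right) on each of the 10 arrays, minus the mean of the 8 single mice, with genes ordered by difference and lines between controls, tumour-bearing mice and pools. The lowest single-mouse cells of Lama4, Lama3, Lamc1, Col1a2 and Col1a1 are all in tumour-bearing mouse 5.

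Among the fibrillar collagens 6 of 9 tested genes were below 0 and 0 were called. Col3a1, the type III collagen of reticular fibres and vessel walls, was the one member whose groups did not overlap, 1 of 40 beside 8.3% of all tested genes (5.19% with the tumour-bearing mice below and 3.11% above). It was at 5.08, 5.04 and 5.05 in the controls and at 4.86, 4.79, 4.84, 4.61 and 4.65 in the tumour-bearing mice. All 5 tumour-bearing mice lay below the 3 controls, which were close to each other. The means were 5.06 ± 0.022 (SD, n = 3) and 4.75 ± 0.11 (SD, n = 5), a level 1.24-fold lower (difference -0.31 ± 0.11 SE, 95% interval -0.54 to -0.071, limma adjusted p = 0.369). The control pool was at 4.87, below all 3 single controls and just above the highest tumour-bearing mouse, and the tumour-bearing pool was at 4.64. Leaving out any 1 mouse gave differences of -0.34 to -0.27, none of them past the threshold.

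Col1a1 and Col1a2 encode the chains that together form type I collagen. Col1a1 was at 5.80, 6.05 and 6.17 in the controls and at 5.95, 5.95, 5.91, 5.97 and 5.39 in the tumour-bearing mice. Col1a2 was at 6.49, 6.38 and 6.73 in the controls and at 6.29, 6.42, 6.42, 6.44 and 5.85 in the tumour-bearing mice. In each gene 4 tumour-bearing mice lay close together, near or within the control range, and mouse 5 lay apart below them. Col1a1 differed by -0.17 ± 0.15 SE (limma adjusted p = 0.745) and Col1a2 by -0.25 ± 0.15 SE (limma adjusted p = 0.594). Leaving out mouse 5 gave -0.059 for Col1a1 and -0.14 for Col1a2, and leaving out control 3 gave -0.090 and -0.15. Over all 8 mice left out in turn the ranges were -0.28 to -0.059 and -0.33 to -0.14. In the pools Col1a1 differed by -0.27, while Col1a2 was at 6.23 in each.

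The remaining fibrillar collagens differed by at most 0.10 in size. Col5a1, a type V chain found inside type I fibres, differed by 0.074 ± 0.11 SE, and a second probe set of the gene, below the filter, by 0.047. Col2a1, the main collagen of cartilage, differed by 0.10 ± 0.11 SE, and the type XI chains Col11a1 and Col11a2, also of cartilage, by -0.014 ± 0.077 SE and 0.039 ± 0.12 SE. Col24a1 and Col27a1, fibrillar collagens of skeletal tissue, differed by -0.060 ± 0.15 SE and -0.065 ± 0.10 SE. Without tumour-bearing mouse 3, 4 of the 9 fibrillar genes were below 0 and their median was 0.013. Col5a2 and Col5a3 did not pass the filter.

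**Figure D3:**
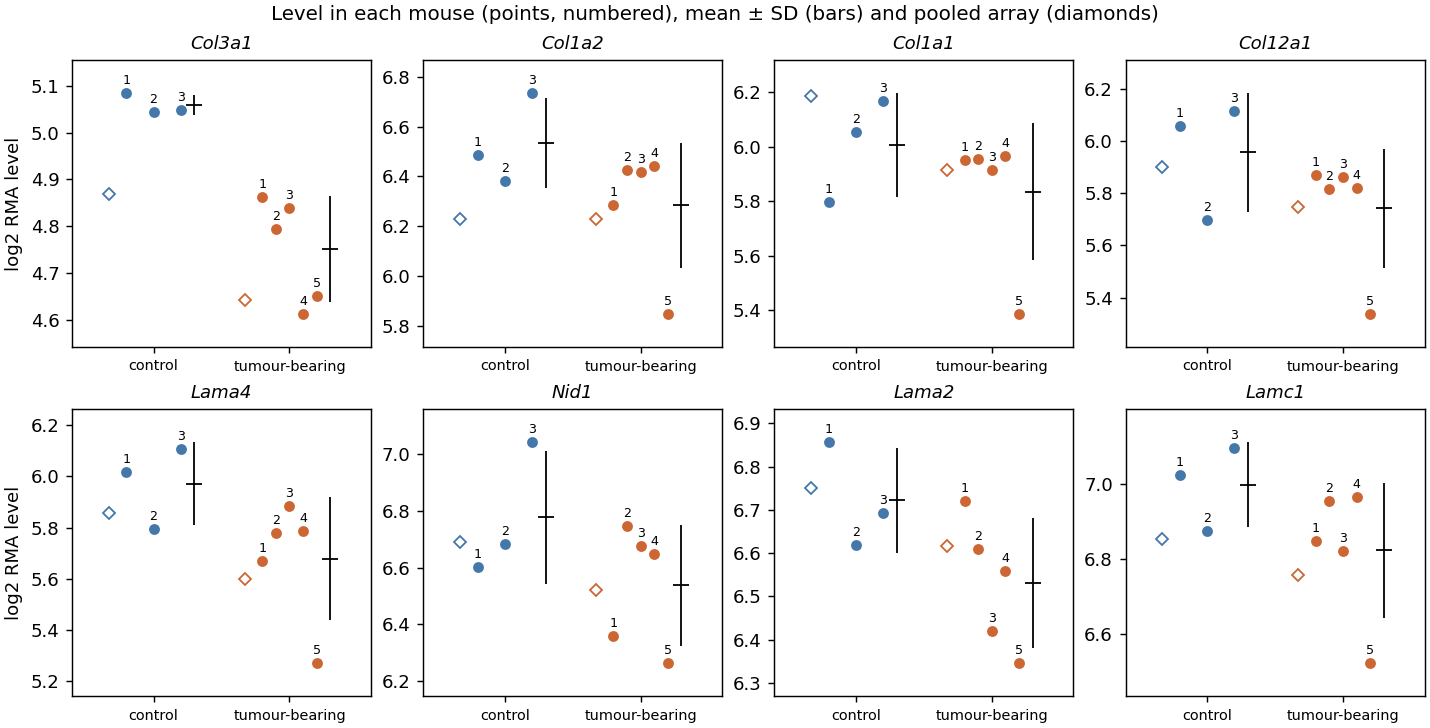
Log2 level of 8 collagen, laminin and nidogen genes in each single mouse (points with the mouse's number), with the mean ± SD of each group (bars) and the pooled array (open diamonds); each panel has its own axis, which does not start at 0. Col3a1 alone shows every tumour-bearing mouse below every control, and mouse 5 is the lowest single mouse in each of the other 7 panels.

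The other collagens were evenly split, with 8 of 16 tested genes above 0, 8 below and 0 called. Col6a5, an alternative chain of the beaded type VI filaments, had the highest difference of all members, 0.38 ± 0.21 SE (limma adjusted p = 0.578). It was at 4.09, 4.38 and 4.41 in the controls and at 5.07, 4.43, 4.19, 4.71 and 4.97 in the tumour-bearing mice. Tumour-bearing mice 1, 4 and 5 lay above the controls, mouse 2 just above them and mouse 3 among them. Control 1 and mouse 3 were under the filter level, and with such values raised to it the difference was 0.33. A second probe set of Col6a5 differed by 0.28, and the pools by 0.24.

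Col12a1 encodes a collagen on the surface of type I fibres and had the lowest difference among the other collagens. It was at 6.06, 5.70 and 6.12 in the controls and at 5.87, 5.82, 5.86, 5.82 and 5.34 in the tumour-bearing mice. In Col12a1 4 tumour-bearing mice lay within the control range and mouse 5 below it. The difference was -0.21 ± 0.15 SE (limma adjusted p = 0.658), -0.11 without mouse 5, -0.13 without control 3 and -0.34 without control 2. The next genes were chosen after their values were seen. The common type VI chains differed by -0.089 ± 0.12 SE (Col6a1), -0.045 ± 0.14 SE (Col6a2) and -0.013 ± 0.18 SE (Col6a3). Col14a1, another collagen of fibre surfaces, differed by -0.16 ± 0.11 SE in the single mice and by -0.55 in the pools, the largest pool difference among the 40. Col25a1, a transmembrane collagen of neurons, differed by 0.072 ± 0.064 SE (95% interval -0.072 to 0.22), the smallest standard error of the members. The remaining 9 other collagens tested lay between -0.092 and 0.14.

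The 13 members that did not pass the filter had levels of 2.88 to 4.63 in the single mice and differences of -0.092 to 0.18. A further 5 tested members, Col4a5, Col24a1, Col19a1, Col22a1 and Col6a5, had at least 1 array at or under the filter level, and 35 were above it on all 8. Some members are neighbours in the RefSeq annotation, with no coding gene between them, and 3 such pairs had both genes tested. Col6a1 and Col6a2 differed by -0.089 and -0.045, Col4a1 and Col4a2 by -0.078 and 0.026, and Col6a5 and Col6a6 by 0.38 and -0.072. The differences had unlike signs in 2 of the 3 pairs, but all except that of Col6a5 were smaller in size than their standard errors.

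The extremes were unevenly spread over the mice. Tumour-bearing mouse 5 had the lowest level of the 8 for 11 of the 40 tested members, among them 5 of the 9 laminin chains, where it was lowest for 16.1% of all tested genes. Control 3 had the highest level for 12 of the 40 and for 5 of the 9 laminin chains, where it was highest for 15% of all tested genes. Control 1 was the lowest for 10 of the 40 (17.6% of all tested genes) and tumour-bearing mouse 1 the highest for 11 (14.5%). The mean centred level of the basement membrane genes was -0.023, 0.022 and 0.15 in the controls and 0.0055, 0.050, -0.017, -0.041 and -0.15 in the tumour-bearing mice. The groups overlapped, with control 3 and mouse 5 at the ends. For the fibrillar collagens it was 0.00090, 0.056 and 0.079 in the controls and 0.093, 0.0025, -0.10, -0.0036 and -0.13 in the tumour-bearing mice, with tumour-bearing mouse 1 the highest and mouse 5 the lowest.

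Markers of meningeal fibroblasts, which make fibrillar collagen at the brain surface, were often extreme in mouse 5 and control 3. All 16 markers, such as Dcn, Slc6a13 and Aldh1a2, passed the filter, 14 were below 0 and 0 were called, with a median difference of -0.31. Mouse 5 had the lowest level for 11 of the 16, and control 3 the highest for 9. The log2 of their summed level was 11.28 to 11.69 in controls and 10.75 to 11.48 in tumour-bearing mice. Of the 12 markers of pericytes and smooth muscle 11 were below 0 and 0 were called, with a median of -0.12 and a summed level of 10.77 to 11.27 in controls and 10.44 to 11.01 in tumour-bearing mice. Of the 11 endothelial markers 7 were below 0 and 0 were called, with a median of -0.021 and a summed level of 11.45 to 11.64 in controls and 11.48 to 11.74 in tumour-bearing mice. Every measured marker of these 3 lists passed the filter. Mouse 5 was the lowest for 4 of the 12 pericyte and smooth muscle markers and for 1 of the 11 endothelial markers, beside 16.1% of all tested genes. Control 1 was the lowest for 4 of the 12 and 5 of the 11. Some markers of cells other than those of vessels and meninges were low in mouse 5. It had the lowest level for 5 of 5 tested microglial, 5 of 6 oligodendrocyte and 3 of 6 astrocyte markers. It was the lowest for 0 of 11 markers of hypothalamic neurons and 0 of 8 of ependyma and tanycytes. Mouse 5 was the highest for 2 markers in each of those last lists. All 5 microglial markers were below 0, with a median of -0.21 and a summed level of 8.96 to 9.07 in controls and 8.54 to 8.99 in tumour-bearing mice. All 6 oligodendrocyte markers were below 0, with a median of -0.51 and a summed level of 12.06 to 12.16 in controls and 11.52 to 12.06 in tumour-bearing mice. In each of these lists 0 were called. The part of any of these marker lists in the collagen and laminin differences was not tested.

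**Figure D4:**
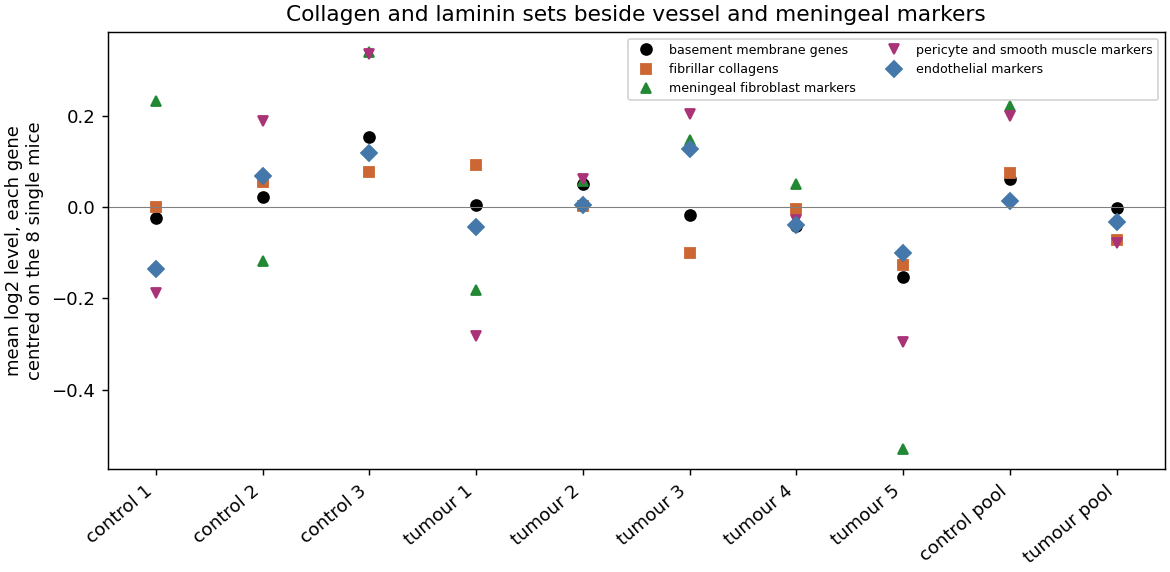
Mean log2 level per array of the tested basement membrane genes, fibrillar collagens and markers of meningeal fibroblasts, pericytes and smooth muscle, and endothelium, each gene centred on the 8 single mice. Among the single mice, meningeal fibroblast markers range from -0.53 in tumour-bearing mouse 5 to 0.34 in control 3. The basement membrane genes have their lowest and highest values in the same animals. The fibrillar collagens are also lowest in mouse 5 but highest in tumour-bearing mouse 1 (0.093), where the meningeal markers are at -0.18.

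The enzymes that make and fix collagen were also without a call. Of 24 tested processing genes 7 were above 0, 17 below and 0 called, with a median of -0.040. Colgalt2 and Colgalt1 encode enzymes that add galactose to collagen. Colgalt2 differed by -0.29 ± 0.11 SE (limma adjusted p = 0.395) and Colgalt1 by 0.17 ± 0.061 SE (limma adjusted p = 0.400), each with groups that did not overlap. Both were named for their small p. Over all tested genes 5.19% had the tumour-bearing mice wholly below, as in Colgalt2, and 3.11% wholly above, as in Colgalt1. In the pools they differed by 0.0072 and 0.030. Plod1, a lysyl hydroxylase of collagen, differed by -0.22 ± 0.098 SE, and Tll1, a protease that trims procollagen, by -0.24 ± 0.12 SE.

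Of 20 tested genes of other matrix proteins 9 were above 0, 11 below and 0 called, with a median of -0.0080. Hmcn1, a hemicentin of basement membranes, is on the array with 77 probe sets, of which the brightest was read. The control mean was 7.01 ± 0.095 (SD, n = 3) and the tumour-bearing mean 6.63 ± 0.11 (SD, n = 5), and the groups did not overlap. Groups lay wholly apart in 8.3% of all tested genes. The difference was -0.38 ± 0.077 SE (limma adjusted p = 0.189), and -0.37 in the pools. It passed the threshold when the test was limited to probe sets of 1 gene (limma adjusted p = 0.0498, the lowest of its alternatives). Sparc, a collagen-binding protein, differed by 0.15 ± 0.033 SE (limma adjusted p = 0.226), with the 5 tumour-bearing mice above the 3 controls, and by -0.039 in the pools. Fbln5, an elastic fibre protein, differed by 0.56 ± 0.13 SE (limma adjusted p = 0.244) and Ntn1, a laminin-related guidance protein, by -0.34 ± 0.11 SE (limma adjusted p = 0.360).

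Of the 14 tested matrix receptors 11 were below 0 and 0 called, with a median of -0.035. Itga1, a subunit of a collagen-binding integrin, differed by -0.34 ± 0.11 SE (limma adjusted p = 0.339). Itgb4, a subunit of a laminin-binding integrin, differed by -0.27 ± 0.10 SE (limma adjusted p = 0.406), and Ddr1, a collagen-binding receptor kinase, by -0.11 ± 0.048 SE (limma adjusted p = 0.459). For these 3 of the 14, named for their small p, all tumour-bearing mice lay below all controls, beside 5.19% of all tested genes. Itga7, another subunit of laminin-binding integrins, differed by -0.23 ± 0.11 SE. Of the 14 tested proteases and inhibitors 8 were above 0, 6 below and 0 called, with a median of 0.020. Adamts4, a protease of matrix proteoglycans, differed by -0.59 ± 0.15 SE (limma adjusted p = 0.259), and by -0.40 in the pools, with all tumour-bearing mice below all controls. Mmp14, a membrane-bound collagenase, differed by -0.36 ± 0.13 SE, Adamts9, a related protease, by 0.21 ± 0.081 SE and Timp4, a protease inhibitor, by 0.10 ± 0.051 SE. Adamts9 is on the array with 6 probe sets, of which the brightest was read. With its tested probe sets averaged the difference was 0.020.

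In the pools, with no replicate, 26 of the 40 tested members were lower in the tumour-bearing pool, beside 52.7% of all tested genes. All 9 tested fibrillar collagens were lower there, with a median of -0.15. Of the 15 basement membrane genes 9 were lower, with a median of -0.078, and of the 16 other collagens 8 were lower. Lama4 differed by -0.26, Nid1 by -0.17, Lama2 by -0.13 and Lamc1 by -0.095. Col5a1, Col2a1 and Col11a2, which were above 0 in the single mice, differed by -0.24, -0.081 and -0.15 in the pools.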

How the data were processed

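Total RNA from 10 hypothalamus samples was measured on a whole-transcript oligonucleotide array. The deposited values are log2 levels per probe set, made by the authors with RMA, per the submitters' processing notes; RMA corrects background, sets all arrays to a common distribution and summarises probes, which compresses differences of dim probe sets. The RMA version and whether all arrays were processed together are not given in the sources used here. Probe sets were named from the platform annotation: 21218 of 35556 had 1 gene symbol, 1881 several and 12457 none, and a probe set with several named no gene. Levels were not compared between probe sets.

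The 5 tumour-bearing and 3 control single arrays were compared with limma 3.58.1 (lmFit, eBayes with an intensity trend) in R 4.3.3, with Benjamini-Hochberg adjustment over 22837 probe sets above 20 (linear) on at least 3 of the 8 arrays, and a threshold of 0.05. The script was tested on simulated data. The labels do not say that samples were processed as batches, and p-values measure the spread between these mice. The text names every tested basement membrane and fibrillar gene, of the other collagens those at an unadjusted p under 0.05 or, as here with none, the highest and lowest difference, and of each companion list up to 4 genes with the smallest p. The members, lists and rules were chosen with earlier results of these data known. The alternatives tried were no filter, a stricter filter, 1-gene probe sets alone, averaging over the probe sets of a gene, repeated quantile normalization, array weights, robust eBayes, a replicate block, the pools as samples, and leaving out each mouse or mice 3 and 4. Figures were drawn with matplotlib 3.10.9.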

Additional observations from a re-analysis of the deposited data

Results flagged for a closer look

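In 6 of 56 genes looked at, 1 of the 5 tumour-bearing mice stood apart. The gap to its nearest neighbour was more than 0.71 of the range of the group. Chance gives about 1 in 20 for a single gene with normally spread values. The 56 genes share the same mice and some were picked by a small p, so their count cannot be set against that rate. The share over all tested genes was not computed. In 5 of the 6 genes the mouse that stood apart was mouse 5, the lowest. These were Col1a1 at 5.39 (next mouse 5.91, share 0.911), Col1a2 at 5.85 (next mouse 6.29, share 0.737), Col12a1 at 5.34 (next mouse 5.82, share 0.898), Lama3 at 5.04 (next mouse 5.45, share 0.819) and Lamb2 at 6.75 (next mouse 7.06, share 0.898), where the share is the gap over the range. Without mouse 5 the differences were -0.059, -0.14, -0.11, -0.064 and -0.010, in place of -0.17, -0.25, -0.21, -0.16 and -0.076. The same mouse was lowest for 11 of 16 markers of meningeal fibroblasts, 5 of 5 of microglia and 5 of 6 of oligodendrocytes. For vessel cells the counts were 4 of 12 markers of pericytes and smooth muscle and 1 of 11 of endothelium. It was lowest for 0 of 11 markers of hypothalamic neurons and 0 of 8 of ependyma and tanycytes. The part of these lists in these values was not tested. In Col9a2, a chain of the type IX collagen of cartilage, mouse 1 was the highest at 5.73, with the next mouse at 5.17 and a share of 0.861.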

How the results depend on the processing

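No member was called under any of the 18 alternatives. Of 753 values recomputed for 42 genes, 727 kept their sign and their side of the threshold, 25 changed sign and 1 passed the threshold, Hmcn1 with 1-gene probe sets alone. The limma count of called probe sets, over the whole array, was 13. It was 5 with no filter, 24 with array weights, 72 with 1-gene probe sets alone and 0 without mice 3 and 4. Leaving out 1 mouse gave 0 to 66: 10, 2 and 0 without controls 1, 2 and 3, and 6, 66, 6, 4 and 5 without tumour-bearing mice 1 to 5. The fibrillar median of -0.060 was 0.021 without mice 3 and 4 and ranged over -0.098 to 0.013 on leaving out 1 mouse. That of the basement membrane genes ranged over -0.13 to -0.020 on leaving out 1 mouse, and was -0.061 without mice 3 and 4. For the other collagens the range was -0.017 to 0.062. Their median was 0.084 without mice 3 and 4, 0.066 with the replicate block and -0.035 under the stricter filter. The median of the proteases and inhibitors ranged over -0.0011 to 0.063, highest without control 2. The causes were not tested.

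The replicate numbers did not pair the samples: the deviations of same-numbered mice correlated at -0.0020, 0.0084 and 0.0089. In a fit with the number as a replicate block, tumour-bearing mice 4 and 5 had no control of the same number. They added nothing to the difference, which was that of mice 1 to 3 of each group. In that fit 0 probe sets were called, and 21 of 40 members and 6 of 9 laminin chains were below 0. Col11a2 (-0.012), Lama1 (0.011) and Lama5 (0.051) changed sign. Such changes cannot be told apart from the loss of mice 4 and 5.

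Other sign changes were in genes with differences of at most 0.11 in size. With array weights they were Col11a2 (-0.021), Col4a5 (-0.018), Lama1 (0.0016), Lamb1 (0.037) and Lamc3 (-0.040). With the pools as samples they were Col11a1 (0.0013), Col11a2 (-0.0053) and Col5a1 (-0.0030), and without mice 3 and 4 Col11a1 (0.021), Col24a1 (0.021) and Col4a2 (-0.0073). Leaving out 1 mouse gave -0.017 to 0.10 for Col11a2 and -0.14 to 0.24 for Lamc3 (lowest without control 1), -0.045 to 0.093 for Col4a5 (below 0 without control 1 or tumour-bearing mouse 5), -0.18 to 0.021 for Lamb1 (above 0 without control 1 or 3), -0.16 to 0.050 for Lama5 (above 0 without control 2 or tumour-bearing mouse 4), -0.090 to 0.047 for Lama1 (without control 3), and -0.039 to 0.016 for Col11a1 and -0.13 to 0.013 for Col24a1 (without tumour-bearing mouse 3). Repeated quantile normalization shifted the median of all probe sets by 0.0059. With 3 and 5 mice, differences within the intervals given were not excluded.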
